A study of Mus musculus with 4 samples.

Results

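Transcripts often read as signs of injury in the kidney tubule, 10 of the 32285 genes in the count matrices, were followed through the tubule segments of young and aged mice with and without *Tfeb* in the proximal tubule. The genes were *Havcr1*, *Lcn2*, *Vcam1*, *Krt8*, *Krt18*, *Spp1*, *Clu*, *Sox9*, *Cd44* and *Krt20*, taken by name with earlier results of these data known. Single cells from the renal cortex of male mice were sequenced at the 3′ ends of transcripts on the 10x platform, in 1 library for each of 4 groups. These were young Tfebfl/fl and young Tfebfl/fl KAP mice aged 6 weeks, and aged Tfebfl/fl and aged Tfebfl/fl KAP mice aged 24 months. All mice carried the floxed *Tfeb* alleles. Tfebfl/fl mice served as controls, and Tfebfl/fl KAP mice also carried Cre recombinase under the promoter of the kidney androgen-regulated protein. That promoter answers to androgen, so that only males were studied, and it drives Cre mainly in the last (S3) segment of the proximal tubule, so that other segments of these mice were not the target. Cortex of 2 or 3 mice was pooled for each library, and values below are given in the order young Tfebfl/fl, young Tfebfl/fl KAP, aged Tfebfl/fl, aged Tfebfl/fl KAP unless stated otherwise.

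Proximal tubule cells recover most of the filtered solutes and are the segment most easily harmed by lack of oxygen, toxins or protein overload. Harmed cells lose transporters and switch on a programme that includes a phagocytic receptor on their surface (*Havcr1*, also called KIM-1), secreted proteins found in urine (*Lcn2*, *Spp1*, *Clu*), adhesion molecules (*Vcam1*, *Cd44*), keratins of simple epithelia (*Krt8*, *Krt18*, *Krt20*) and the transcription factor of regenerating epithelium *Sox9*. Several of these genes also belong to the resting programme of more distal segments, so that a segment's own level is needed before a difference between conditions can be read.

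In all, 30191 cells were kept, 10045, 7895, 5704 and 6547 per library, with a median of 11801 to 14736 unique molecular identifiers (UMIs, the counted transcripts) per cell. Of these, 24112 cells (79.9%) were in tubule classes, which were rebuilt here by clustering and named from marker genes without using the 10 members. The name S3-like rested on 4 of its 8 markers, except in 1 cluster of 61 cells where all 8 were detected. Between 10 and 27 cell barcodes were shared by any 2 libraries. *Tfeb*, the targeted gene, was counted at 6.52, 5.14, 5.46 and 2.32 CPM (UMIs of the gene per 1000000 UMIs of the class) in S3-like cells and at 8.26, 8.68, 8.03 and 6.26 CPM in S1/S2-like cells. Its log2 ratio in S3-like cells was -1.24 (95% interval -1.64 to -0.85) for aged Tfebfl/fl KAP against aged Tfebfl/fl and -0.34 (-0.64 to -0.05) for young Tfebfl/fl KAP against young Tfebfl/fl mice. The 3′ end that was counted may lie outside the deleted part of *Tfeb*, in which case these counts do not measure the deletion.

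Levels are UMIs summed over the cells of a class and library, as CPM with an exact Poisson interval, or the share of cells with at least 1 UMI with an exact Clopper-Pearson interval. With 1 library per group, all intervals cover counting error only and no p-value was computed. Fewer expressing cells and fewer transcripts per cell cannot be told apart in a summed level. Free RNA gives UMIs in cells that do not express a gene, so that shares are set beside those in glomerular endothelial-like (gEC-like) cells, or in distal convoluted tubule-like (DCT-like) cells for *Vcam1* and *Cd44*, which endothelium can make. The median depth was 4049, 3998, 5508 and 4501 UMIs in gEC-like cells against 13941, 15420, 18017 and 14722 in S1/S2-like and 19082, 15771, 23012 and 19480 in S3-like cells, and shares were therefore also taken after thinning each cell to 2000 UMIs.

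**Figure D1:**
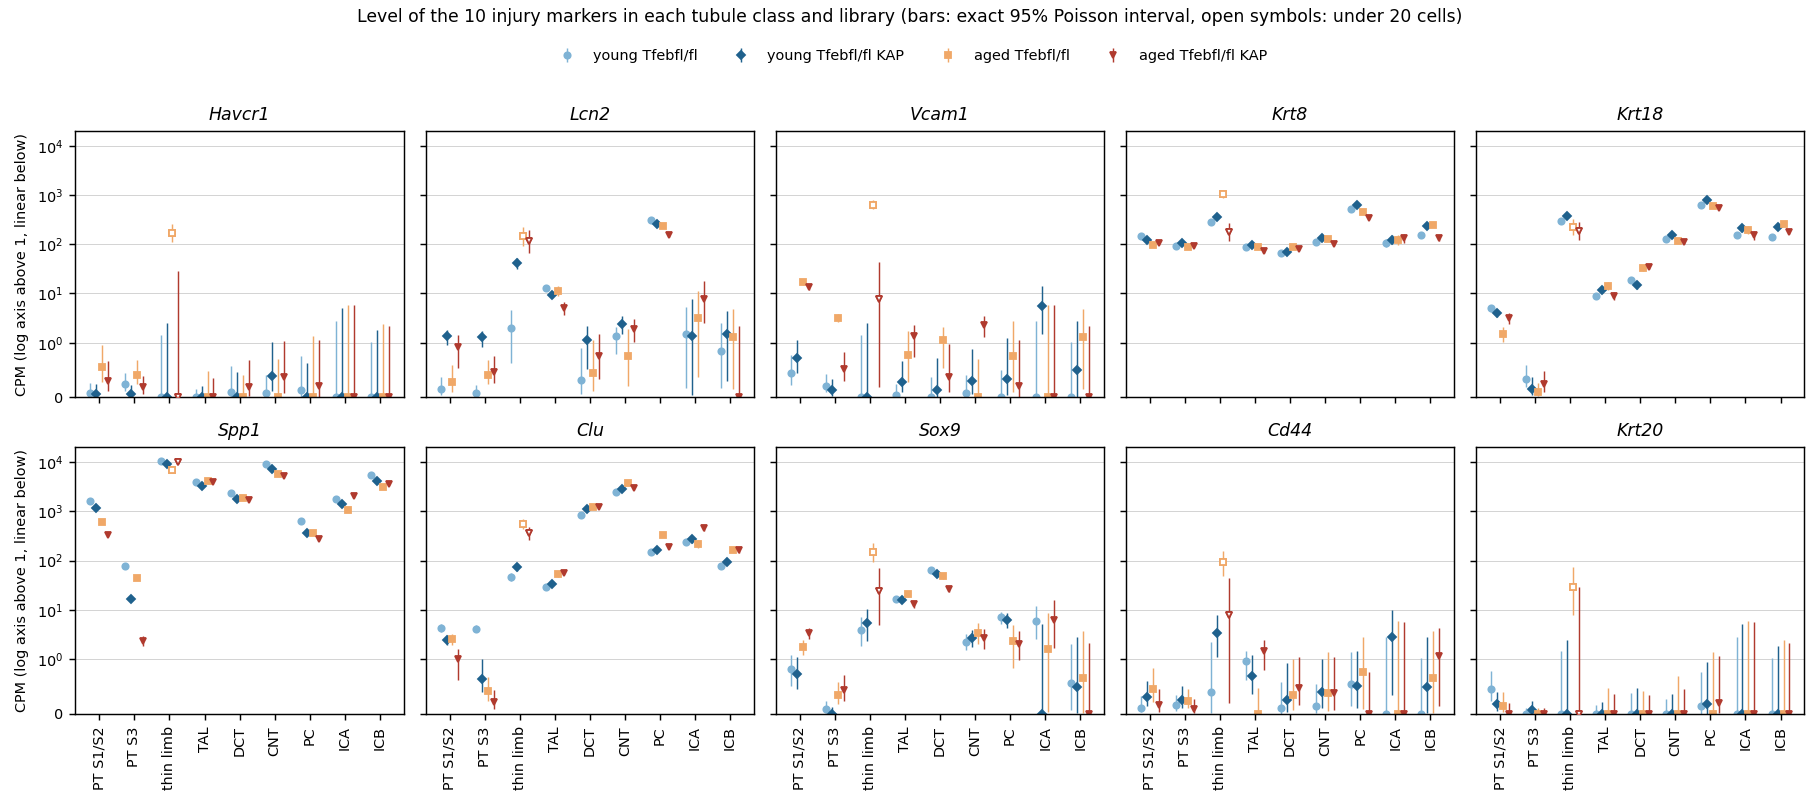
Level of each of the 10 genes (CPM, y axis logarithmic above 1 and linear below) in each tubule class (x axis) for the 4 libraries, with exact 95% Poisson intervals as bars and open symbols for classes of fewer than 20 cells. *Lcn2* stood highest in principal cell-like cells (152 to 311 CPM) and below 1.4 CPM in the proximal tubule, while *Havcr1* and *Krt20* stayed below 0.6 CPM in every class of at least 20 cells.

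*Havcr1* and *Krt20*, the members most closely tied to injury, were nearly absent. *Havcr1*, which encodes a receptor that lets tubule cells engulf dying neighbours, gave 95 UMIs in 57 of all 30191 cells (0.189%). The S1/S2-like UMIs numbered 2, 2, 12 and 6, and the level was at most 0.551 CPM. In S3-like cells they numbered 9, 2, 16 and 6, and the level was at most 0.416 CPM, so that the aged Tfebfl/fl library was highest in both classes on very few UMIs. Cells with a UMI numbered 2, 2, 7 and 6 in the S1/S2-like class. In the S3-like class they numbered 9, 2, 6 and 6 (0.473, 0.125, 0.373 and 0.433%), highest in young Tfebfl/fl mice. The order by level thus rests on UMIs gathered in few cells. Of the 9 S3-like UMIs in young Tfebfl/fl mice, 6 lay in 6 of the 38 cells (15.8%) of a small and deep S3-like cluster, at 5.10 CPM. In this cluster 8 of the 8 S3 markers counted as detected, against 4 in the other S3-like clusters. No *Havcr1* UMI was counted in any of 4670 cells like the thick ascending limb (TAL-like), which by a limit of 3 counts allows a share of cells with a UMI of up to 0.147% in the young Tfebfl/fl library with 2034 such cells. Of the 95 UMIs, 24 came from 1 aged Tfebfl/fl cell of the thin limb-like class and 11 from 1 aged Tfebfl/fl S3-like cell. Both cells also held *Vcam1* (6 and 40 UMIs) and *Spp1* (361 and 702 UMIs). *Krt20*, a keratin of terminally differentiated mucosal epithelium, gave 31 UMIs in 28 cells.

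*Lcn2* encodes a secreted carrier of iron-binding siderophores that is used as an early urinary sign of injury. Its level in principal cell-like cells of the collecting system was 311, 260, 235 and 152 CPM, with a UMI in 64.7, 64.0, 63.3 and 52.2% of cells. The aged Tfebfl/fl KAP library was lowest, with a log2 ratio of -0.63 against aged Tfebfl/fl and -0.77 against young Tfebfl/fl KAP mice, under the 2-fold mark used below. In TAL-like cells it was 13.0, 9.48, 11.3 and 5.01 CPM. In the proximal tubule it reached only 0.148, 1.35, 0.275 and 0.916 CPM (S1/S2-like) and 0.0798, 1.29, 0.416 and 0.457 CPM (S3-like). Young Tfebfl/fl KAP against young Tfebfl/fl mice had 39 against 4 UMIs in S1/S2-like and 40 against 3 in S3-like cells. The log2 ratios were 3.185 (1.715 to 5.13) and 4.01 (2.36 to 6.35). With a mean under 10 CPM they did not enter the counts below, and the part of free RNA was not tested. After thinning, the share of cells with *Lcn2* lay above that of gEC-like cells, with intervals that did not overlap, in principal cell-like cells in 4 of 4 libraries and in the proximal tubule in 0 of 4. At that depth even a share of 0 in gEC-like cells had an upper limit of 0.539 to 1.14%. A gene as sparse as *Lcn2* in the proximal tubule could hardly pass that limit, so that the 0 of 4 decides nothing there.

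The keratins *Krt8* and *Krt18* form the paired filament of simple epithelia, and their genes are neighbours on chromosome 15, 23874 bases apart. To show the start regions of a pair whose products join but whose levels parted in the proximal tubule, the 250 bases before each RefSeq start are printed (build GRCm38.p6, the patch of mm10), for *Krt8* chr15:102004343-102004592 on the minus strand and for *Krt18* chr15:102027966-102028215 on the plus strand, with no letters in capitals because none of the motifs searched was found in them:
Krt8: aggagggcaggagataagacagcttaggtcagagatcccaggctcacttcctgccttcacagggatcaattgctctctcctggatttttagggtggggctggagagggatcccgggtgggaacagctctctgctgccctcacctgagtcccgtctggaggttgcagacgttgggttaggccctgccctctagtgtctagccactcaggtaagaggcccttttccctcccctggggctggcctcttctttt
Krt18: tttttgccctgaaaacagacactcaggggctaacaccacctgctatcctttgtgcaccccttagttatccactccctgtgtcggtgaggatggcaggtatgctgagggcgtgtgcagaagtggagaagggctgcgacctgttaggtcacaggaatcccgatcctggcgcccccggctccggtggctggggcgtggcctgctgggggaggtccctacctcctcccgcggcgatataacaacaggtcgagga
The window of *Krt8* has 58% G and C and 3 CpG pairs and that of *Krt18* 60.4% and 12, against medians of 52.4% and 6 over all promoters.

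*Krt8* was present throughout the tubule. Its S1/S2-like level was 145, 124, 98.6 and 107 CPM, with a UMI in 63.8, 61.6, 63.4 and 65.1% of cells. In S3-like cells it was 93.5, 108, 87.4 and 91.0 CPM, with a UMI in 63.4, 64.9, 66.7 and 68.9% of cells. In gEC-like cells the corresponding share was 4.66, 5.66, 4.23 and 1.15%, and the thinned share was above that of gEC-like cells in all 9 tubule classes in every library with at least 20 cells. Among classes of at least 20 cells, the highest *Krt8* levels were in principal cell-like cells (529, 615, 452 and 347 CPM), and the ranges over libraries of cells like the connecting tubule (CNT-like, 102 to 135 CPM), type A intercalated-like (106 to 133 CPM), S1/S2-like and S3-like cells overlapped one another. No class showed a 2-fold difference in *Krt8* in any comparison.

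*Krt18* behaved otherwise. It was 636, 800, 586 and 556 CPM in principal cell-like cells and 125, 157, 116 and 110 CPM in CNT-like cells, but 5.0, 4.04, 1.51 and 3.16 CPM in S1/S2-like and 0.346, 0.161, 0.104 and 0.244 CPM in S3-like cells. The thinned share of proximal tubule cells with *Krt18* was above that of gEC-like cells in 0 of 4 libraries in either class. At levels this low the thinned shares could hardly pass the upper limit in gEC-like cells, so that this does not decide whether the cells expressed it. In DCT-like cells the level was 19.1, 14.7, 32.2 and 34.6 CPM, so that both aged libraries were above both young ones. The log2 ratio of aged over young was 0.76 in Tfebfl/fl and 1.23 (0.93 to 1.55) in Tfebfl/fl KAP mice, and the 2 values rest on different libraries.

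*Spp1*, which encodes osteopontin, a secreted matrix protein that binds integrins and calcium crystals, was a gene of nearly all segments. The 250 bases before its first RefSeq start, chr5:104434861-104435110 on the plus strand, are shown because this gene stood 2-fold apart in at least 1 proximal tubule class in every comparison, with the letters TATAAA in capitals, 211 bases before the start:
Spp1: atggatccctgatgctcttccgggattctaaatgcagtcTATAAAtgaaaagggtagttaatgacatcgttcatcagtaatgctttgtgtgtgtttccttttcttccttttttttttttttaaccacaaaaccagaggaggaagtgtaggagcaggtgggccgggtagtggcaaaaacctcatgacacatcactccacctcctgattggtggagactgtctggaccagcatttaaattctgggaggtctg
The window has 43.6% G and C. Start windows of 7 of the 10 genes, 10 windows in all, were matched in the RefSeq table, and those of *Vcam1*, *Clu* and *Sox9* were not. On both strands, CACGTG (the E-box core that TFEB and other factors of its family bind), TGANTCA (AP-1) and the NF-kB motif occurred in none of the 10 windows, against 6.02, 6.75 and 1.21% of 32851 windows of this length, and TATAAA in 12.4% of these and in the windows of *Spp1* and *Krt20*. The lack of a match says only that these letters are not in these windows.

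In young Tfebfl/fl mice *Spp1* ran from 10600 CPM in thin limb-like cells through 9059 in CNT-like, 5564 in type B intercalated-like, 3993 in TAL-like, 2389 in DCT-like, 1764 in type A intercalated-like, 1632 in S1/S2-like and 646 in principal cell-like to 78.0 CPM in S3-like cells. Over the 4 libraries the ranges of type A intercalated-like (1060 to 2066 CPM) and S1/S2-like cells (327 to 1632 CPM) overlapped, and so did those of type B intercalated-like (3155 to 5564 CPM) and TAL-like cells (3303 to 4060 CPM). Thus S1/S2-like and S3-like cells differed widely in *Spp1* within every library.

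*Spp1* differed between conditions in both proximal tubule classes. In S1/S2-like cells it was 1632, 1170, 611 and 327 CPM, lower in both aged than in both young libraries and lower in Tfebfl/fl KAP than in Tfebfl/fl mice at each age. The share of these cells with a UMI was 93.4, 76.8, 67.7 and 40.7%. In S3-like cells it was 78.0, 16.2, 44.2 and 2.32 CPM, with a UMI in 49.0, 5.14, 13.9 and 2.53% of cells, so that Tfebfl/fl KAP mice were lower at both ages. The log2 ratio in S3-like cells was -2.26 (-2.40 to -2.13) for young Tfebfl/fl KAP against young Tfebfl/fl and -4.25 (-4.61 to -3.92) for aged Tfebfl/fl KAP against aged Tfebfl/fl mice. In aged Tfebfl/fl mice 702 of the 1699 S3-like *Spp1* UMIs lay in 1 cell, which also held 11 *Havcr1* and 40 *Vcam1* UMIs. Without the 3 cells with most *Spp1*, the level was 22.48 CPM in aged Tfebfl/fl and 1.525 CPM in aged Tfebfl/fl KAP mice. The intervals do not cover such a gathering in few cells. Over the 9 tubule classes *Spp1* was lower in young Tfebfl/fl KAP than in young Tfebfl/fl mice in 9, with log2 ratios of -2.26 to -0.21. In S1/S2-like cells the ratio was -1.42 (-1.45 to -1.39) for aged against young Tfebfl/fl and -1.84 (-1.88 to -1.80) for aged against young Tfebfl/fl KAP mice.

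The background correction moved with these values. The deposited counts keep an explicit 0 where the correction removed all UMIs of a gene from a cell, and for *Spp1* this held for 3.78, 20.5, 28.6 and 55.8% of S1/S2-like and 36.7, 84.8, 77.5 and 87.4% of S3-like cells. In gEC-like cells, the reference for free RNA, the level was 190, 28.2, 0 and 0 CPM, with a 0 left by the correction in 18.3, 60.7, 58.2 and 62.4% of cells. Over all genes, explicit zeros made up 2.90, 12.5, 9.41 and 12.9% of entries. After thinning, the share of S3-like cells with *Spp1* was above that of gEC-like cells in 1 of 4 libraries and that of S1/S2-like cells in 4 of 4. With the level per gEC-like cell subtracted, an alternative chosen after seeing the data, the S3-like log2 ratio of aged over young Tfebfl/fl mice went from -0.82 to 0.46, while that of aged Tfebfl/fl KAP over aged Tfebfl/fl mice (-4.25) could not change, since gEC-like cells of both aged libraries had no *Spp1* to subtract. Over all alternatives the former ranged from -1.68, without the 3 cells with most UMIs, to 0.46, and the latter from -6.97, without 2 proximal tubule clusters with stress genes among their leading genes, to -3.14, with doublets kept. Of these 2 clusters, 1 was S3-like and 1 S1/S2-like, and the latter was also led by the transporters *Slc5a12* and *Slc6a19*. In S1/S2-like cells the ratio of aged over young Tfebfl/fl mice was -0.86 with clusters weighted as in young Tfebfl/fl mice and -0.89 with at most 20% mitochondrial counts, under the 2-fold mark. The part of the correction in the *Spp1* differences was not tested.

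**Figure D2:**
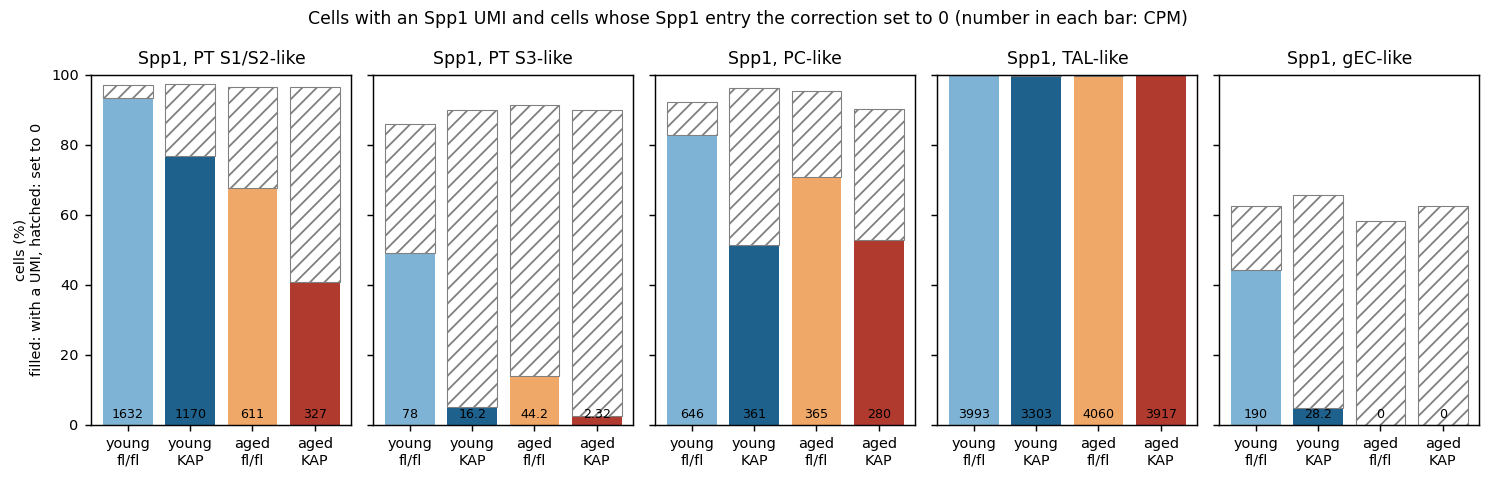
Percent of cells (y axis) with an *Spp1* UMI (filled) and with an *Spp1* entry set to 0 by the authors' background correction (hatched) in 4 tubule classes and gEC-like cells of the 4 libraries, with the level in CPM written in each bar. In S3-like cells 36.7% of cells were set to 0 in young Tfebfl/fl mice and 77.5 to 87.4% in the other libraries, where the level was lower.

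*Vcam1* encodes an adhesion molecule for leukocytes, made by activated endothelium and by proximal tubule cells that fail to recover from injury. Of its 5350 UMIs, 18.3% were in tubule classes. In S1/S2-like cells the UMIs numbered 12, 21, 366 and 260, or 0.445, 0.726, 16.8 and 13.2 CPM, and both aged libraries were above both young ones. The log2 ratio of aged over young was 5.24 (4.42 to 6.21) in Tfebfl/fl and 4.19 (3.55 to 4.91) in Tfebfl/fl KAP mice. It was -0.34 (-0.58 to -0.11) for aged Tfebfl/fl KAP against aged Tfebfl/fl and 0.71 (-0.38 to 1.86) for young Tfebfl/fl KAP against young Tfebfl/fl mice. The age ratios did not enter the counts of 2-fold differences below, because the mean level of both libraries was under 10 CPM.

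The signal came from few cells. A *Vcam1* UMI was found in 4, 9, 75 and 38 S1/S2-like cells, or 0.233, 0.558, 7.04 and 3.97%, against 0, 0.155, 1.49 and 0.497% of DCT-like cells, whose median depth was 9949, 11965, 12631 and 11987 UMIs. With cells that the background correction set to 0 counted in, the shares were 0.407, 1.24, 9.01 and 6.05% in S1/S2-like cells. In DCT-like cells they were 0.210, 0.930, 3.58 and 1.86% and in TAL-like cells 0.147, 0.790, 3.44 and 2.64%. Before correction both aged libraries were thus above both young ones in each of these classes. The part of free RNA was not tested. In the aged libraries the 3 cells richest in *Vcam1* held 28.1 and 43.5% of the S1/S2-like UMIs, with up to 39 and 43 UMIs in a cell. After thinning the shares were 0, 0.124, 1.79 (1.08 to 2.78) and 1.46% (0.80 to 2.44), and in DCT-like cells 0, 0, 0.600 (0.164 to 1.53) and 0.249% (0.030 to 0.896), so that the intervals overlapped at this depth although the levels, 16.8 (15.1 to 18.6) against 1.13 CPM (0.54 to 2.09) in aged Tfebfl/fl mice, did not. Over the alternatives tried, the log2 ratio of aged over young Tfebfl/fl mice ranged from 2.99, with doublets kept, to 8.35, without the 3 cells with most *Vcam1*.

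In S3-like cells *Vcam1* was 0.213, 0.129, 3.20 and 0.518 CPM, from 8, 4, 123 and 17 UMIs, with the aged Tfebfl/fl library highest. A single cell of that library held 40 of the 123 UMIs. The level in other cells also differed by age, and *Vcam1* was 136, 42.1, 730 and 565 CPM in myeloid-like, 29.5, 44.7, 269 and 178 CPM in mesangial-like and 7.16, 7.33, 124 and 20.2 CPM in gEC-like cells. In gEC-like cells 3 cells held 68.8% of the UMIs in aged Tfebfl/fl and 53.2% in aged Tfebfl/fl KAP mice. The share of gEC-like cells with a UMI was 1.86, 1.03, 8.46 and 3.87%. The 7 myeloid markers summed to 2.11, 2.87, 7.25 and 6.36 CPM in S1/S2-like cells, with *C1qa*, *Lyz2*, *Tyrobp* and *Adgre1* at 0 in the first library and none at 0 in the aged ones. Their part in the *Vcam1* differences was not tested.

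**Figure D3:**
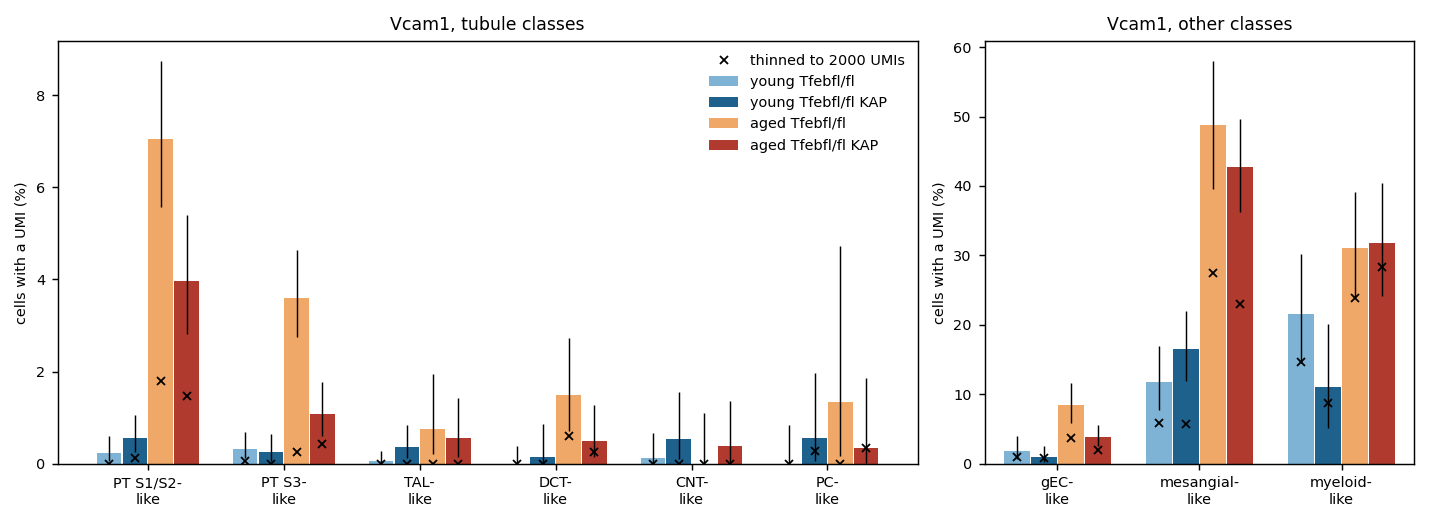
Percent of cells with a *Vcam1* UMI (y axis, bars, with exact 95% intervals as lines and crosses for cells thinned to 2000 UMIs) in 6 tubule classes (left) and in 3 other classes (right) of the 4 libraries. The aged libraries reached 7.04 and 3.97% of S1/S2-like cells, against 0.233 and 0.558% in the young libraries.

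The S1/S2-like cells with *Vcam1* were compared with those without it in each aged library, as a description of cells picked by that count. They were deeper, with a median of 29710 against 17190 UMIs in aged Tfebfl/fl and 23470 against 14120 in aged Tfebfl/fl KAP mice, which by itself raises the chance that any transcript is seen. Levels as CPM take the depth of the cells into account, but not their cluster. A single S1/S2-like cluster, of 196 and 127 cells, held 39 of the 75 and 17 of the 38 cells with *Vcam1*. The comparison does not separate the cells with *Vcam1* from that cluster. *Sox9* was 10.9 against 0.714 CPM (24 against 14 UMIs) and 54.7 against 0.430 CPM (57 against 8 UMIs), and *Spp1* 951 against 572 and 884 against 295.5 CPM. In aged Tfebfl/fl KAP mice 3 cells held 64.6% of all 65 S1/S2-like *Sox9* UMIs, so that its level there rests on few cells. *Krt8* was 163 against 91.3 CPM in the first library and 153.5 against 104 CPM in the second, while *Havcr1* and *Cd44* had at most 4 UMIs in these cells. *Lcn2* had none in either library, against 6 and 18 UMIs in the cells without *Vcam1*. With upper log2 limits of 2.92 and 2.02, these counts are too few to show a difference. *Clu* was at 0.909 against 2.71 CPM (2 against 53 UMIs) and 0 against 1.08 CPM (0 against 20 UMIs). Its upper log2 limits of 0.35 and 1.85 leave the direction open. *Krt18* was 2.27 against 1.43 CPM in the first and 0 against 3.33 CPM (0 against 62 UMIs) in the second library.

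Of the injury-associated list, 17 genes reached 10 CPM over all S1/S2-like cells of each aged library, a filter chosen after seeing the data. The cells with *Vcam1* enter that level, so that a gene high in them could pass through them alone. This held for *Myc* in aged Tfebfl/fl mice, at 7.45 CPM in the cells without *Vcam1*. It also held for *C3*, *Cxcl10* and *Tnfrsf12a* in aged Tfebfl/fl KAP mice, at 2.69, 4.19 and 9.35 CPM. The counts of higher genes are thus in part set by this filter. In aged Tfebfl/fl mice 9 of the 17 genes were at least 2-fold higher in the cells with *Vcam1* and 0 lower, against 0.874% and 0.416% of 7207 genes. In aged Tfebfl/fl KAP mice 10 were higher and 0 lower, against 1.92% and 1.34% of 7139 genes. The median log2 ratio of the list was 1.12 and 1.20, against 0.07 and 0.16 over all genes. *C3*, a complement component, was 292 against 10.4 CPM in aged Tfebfl/fl and 435 against 2.69 CPM in aged Tfebfl/fl KAP mice. *Cxcl10*, a chemokine, was 226 against 25.9 and 374 against 4.19 CPM. *Cp*, which encodes ceruloplasmin and is not among the 17 genes of either library, was 45.5 against 2.91 and 91.2 against 1.40 CPM. Summed over its 37 genes, the list stood at 3041 against 1672 CPM and at 3872 against 1651 CPM. The 18 genes of differentiated proximal tubule, such as the cotransporters and endocytic receptors, summed to 24330 against 26260 CPM and to 24690 against 26450 CPM, and 0 of the 18 were 2-fold apart in either library. The 7 myeloid markers summed to 5.46 against 7.45 CPM and to 10.6 against 6.13 CPM.

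**Figure D4:**
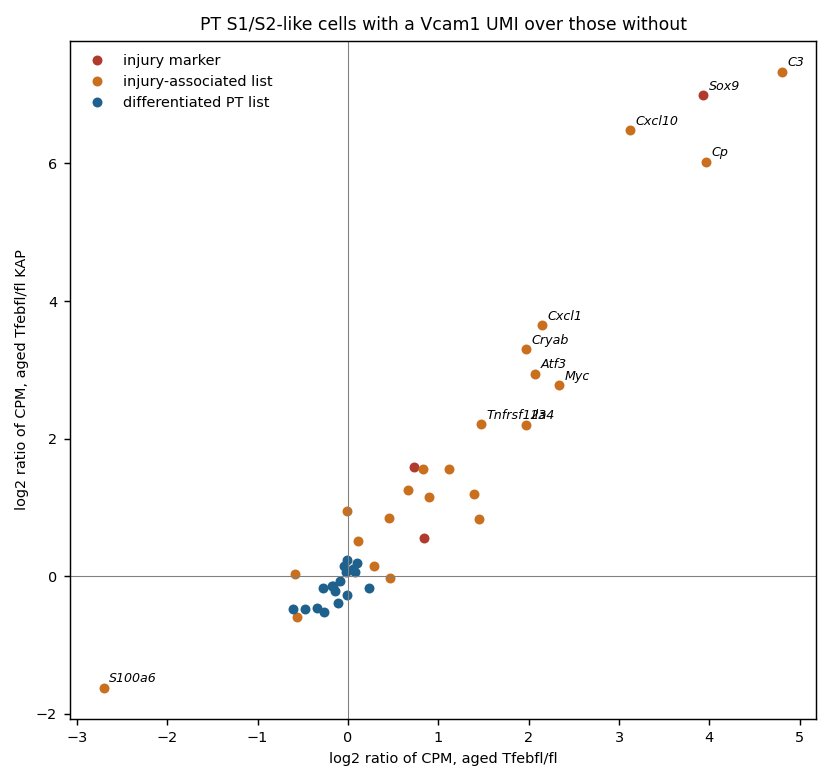
Log2 ratio of the level in S1/S2-like cells with *Vcam1* over those without it, in aged Tfebfl/fl (x axis) and aged Tfebfl/fl KAP mice (y axis). Shown are part of the injury-associated list, the differentiated proximal tubule list and the members *Krt8*, *Sox9* and *Spp1*. The remaining members, among them *Clu* and *Krt18*, are not plotted. *C3* lay at 4.81 and 7.34 and *Sox9* at 3.93 and 6.99, while *S100a6* lay lowest, at -2.70 and -1.62 from 1 and 3 UMIs in the cells with *Vcam1*. The *Sox9* value of aged Tfebfl/fl KAP mice rests on few cells.

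*Clu*, which encodes the extracellular chaperone clusterin, was a gene of the distal tubule. It was 2420, 2812, 3784 and 3002 CPM in CNT-like and 856, 1116, 1235 and 1239 CPM in DCT-like cells, the young Tfebfl/fl library being lowest in both. In principal cell-like cells it was 151, 163, 331 and 185 CPM, with a log2 ratio of 1.14 (1.01 to 1.26) for aged over young Tfebfl/fl mice. In type B intercalated-like cells it was 77.5, 94.3, 167 and 164 CPM, and both aged libraries were above both young ones. Between young Tfebfl/fl KAP and young Tfebfl/fl mice it was higher in the former in 7 of the 7 classes with a mean of at least 10 CPM, with log2 ratios of 0.12 to 0.68, all under 2-fold. In the proximal tubule it was 4.22, 2.45, 2.52 and 1.02 CPM (S1/S2-like) and 4.15, 0.643, 0.416 and 0.213 CPM (S3-like), below the 107, 127, 246 and 252 CPM of gEC-like cells, which express it.

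Among tubule classes of at least 20 cells, *Sox9* was highest in DCT-like cells, at 65.1, 52.4, 47.6 and 26.0 CPM, with a UMI in 26.6, 27.3, 24.9 and 17.3% of cells. The aged Tfebfl/fl KAP library was lowest, with a log2 ratio of -1.01 (-1.24 to -0.79) against young Tfebfl/fl KAP and -0.87 against aged Tfebfl/fl mice. In TAL-like cells it was 16.5, 16.1, 21.1 and 12.9 CPM. In S1/S2-like cells it was 0.815, 0.726, 1.74 and 3.31 CPM, from 22, 21, 38 and 65 UMIs in 15, 10, 18 and 12 cells. In the aged Tfebfl/fl KAP library 3 cells held 64.6% of those UMIs.

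*Cd44*, the receptor for hyaluronan, was a gene of myeloid-like cells, at 248, 332, 275 and 396 CPM. Tubule classes held 11.2% of its 1404 UMIs. No tubule class of at least 20 cells passed 3.4 CPM, and S1/S2-like cells had 3, 9, 10 and 3 UMIs. The thinned share was above that of DCT-like cells in 0 of 4 libraries in either proximal tubule class. Even a share of 0 in thinned DCT-like cells had an upper limit of 0.390 to 0.571%. So sparse a gene could hardly pass that limit, and the 0 of 4 decides nothing.

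Across the tubule, 32 of 80 pairs of a member and a class had a mean of at least 10 CPM and could be read for aged against young Tfebfl/fl mice. Of these, 2 were at least 2-fold higher in aged mice, *Clu* in principal cell-like and in type B intercalated-like cells, against 2.73% of 61119 such pairs over all genes. Only *Spp1* in S1/S2-like cells was at least 2-fold lower, against 0.784% of all pairs. Over the 32 pairs, 16 were higher and 16 lower, and their median log2 ratio was -0.04, against 0.11 over all genes. That overall shift exceeds 0.1, and with each class centred on its own median over all genes neither *Clu* pair reached 2-fold. In type B intercalated-like cells the log2 ratio of *Clu* ranged from 0.61, with at most 20% mitochondrial counts, to 1.70, with doublets kept.

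For aged Tfebfl/fl KAP against aged Tfebfl/fl mice, 1 of 32 pairs was at least 2-fold higher (*Clu* in type A intercalated-like cells, 455 against 216 CPM from 47 and 49 cells), against 0.627% of 62084 pairs over all genes. Its log2 ratio of 1.08 was 0.39 after thinning, 0.87 with the mean over cells and 0.69 without the 3 cells with most UMIs, so that this call was lost under each. *Spp1* in S3-like cells was the 1 pair at least 2-fold lower, against 1.51%. The median was -0.22 against -0.05 over all genes. For young Tfebfl/fl KAP against young Tfebfl/fl mice, 1 of 37 pairs was higher (*Lcn2* in thin limb-like cells, 61 against 5 UMIs) and 1 lower (*Spp1* in S3-like cells), against 0.688 and 0.625% of 67861 pairs, and the median was 0.16 against 0.00 over all genes. The higher *Lcn2* rested on 10 of 108 cells and no longer counted as 2-fold higher without the 3 cells with most UMIs.

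For aged against young Tfebfl/fl KAP mice, 1 of 30 pairs was at least 2-fold higher, *Krt18* in DCT-like cells, against 1.89% of 60469 pairs over all genes. At least 2-fold lower were *Spp1* in S1/S2-like and *Sox9* in DCT-like cells, against 1.12%. *Spp1* in S3-like cells did not enter this count, because its mean was under 10 CPM. It was 2.32 against 16.2 CPM (76 against 505 UMIs), a log2 ratio of -2.81 (-3.18 to -2.46). The median was -0.28 against 0.05 over all genes. The 4 comparisons share libraries, each library entering 2 of them, so that their values are not independent. *Havcr1*, *Cd44* and *Krt20* had no pair with a mean of 10 CPM in any comparison.

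**Figure D5:**
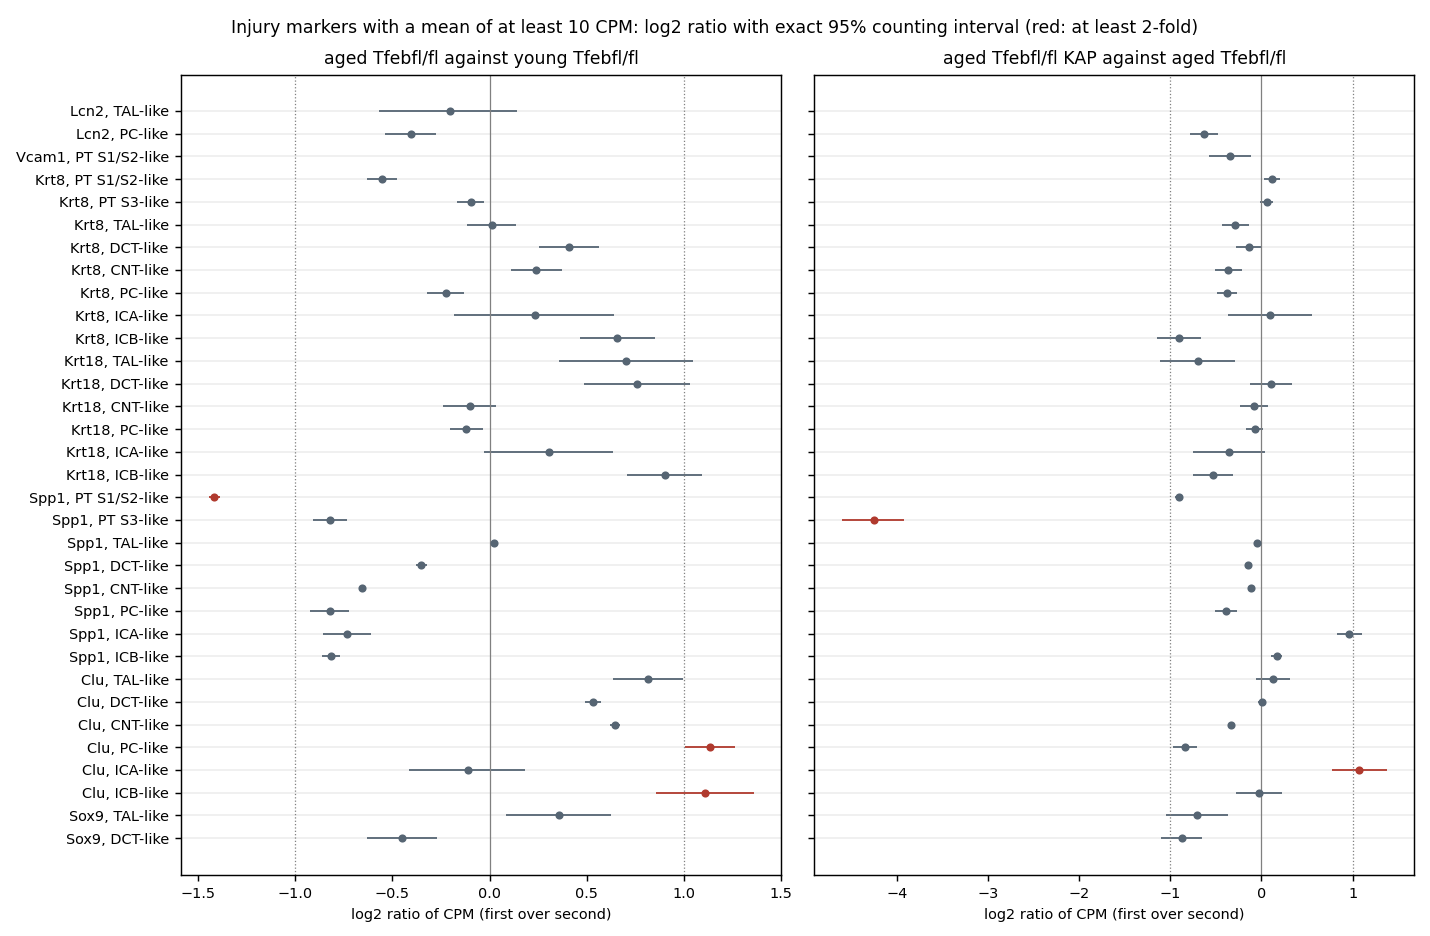
Log2 ratio of CPM (x axis) for each pair of a member and a tubule class (y axis) with a mean of at least 10 CPM, for aged against young Tfebfl/fl (left) and for aged Tfebfl/fl KAP against aged Tfebfl/fl mice (right), with exact 95% counting intervals as bars and pairs at least 2-fold apart in red. *Spp1* in S3-like cells lay lowest, at -4.25 for aged Tfebfl/fl KAP against aged Tfebfl/fl mice.

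Among the 37 other injury-associated genes, 17 had a mean of at least 10 CPM in S1/S2-like cells for aged against young Tfebfl/fl mice. *C3* (log2 ratio 3.77), *Cxcl10* (2.29) and *Cryab*, a small heat shock protein (1.19), were at least 2-fold higher and *Hmox1*, which degrades haem (-1.38), at least 2-fold lower, where 3.25% of all 7136 genes were apart in either direction. A gene high in the aged library could pass this filter through that library alone. In aged Tfebfl/fl mice the cells with and without *Vcam1* held 642 and 204 UMIs of *C3* and 497 and 507 of *Cxcl10*. The higher values are thus not separate from the *Vcam1* cells described above. The median of the list was 0.18 against 0.07 over all genes. In S3-like cells 0 of 13 genes were apart, against 1.68% of all genes. For aged Tfebfl/fl KAP against aged Tfebfl/fl mice, 0 of 16 were apart in S1/S2-like cells, against 0.46% of all genes, and in S3-like cells 1 of 12, the stress factor *Atf3* (-1.91), against 0.985%. For young Tfebfl/fl KAP against young Tfebfl/fl mice, 0 of 13 were apart in both classes, against 0.273% and 0.549% of all genes.

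The differentiated proximal tubule genes were measured for all 18 members in both classes. For aged against young Tfebfl/fl mice in S1/S2-like cells, the dicarboxylate transporter *Slc13a3* (1.06) and the fatty acid transporter *Slc27a2* (1.02) were at least 2-fold higher and the glucose transporter *Slc5a2* (-1.16) lower. Of all 7136 genes there, 3.25% were apart in either direction. The S1/S2-like cluster lowest in *Slc5a2* (289 CPM) held 428 of 1718 young and 447 of 1065 aged Tfebfl/fl cells, and its part was not tested. In S3-like cells the creatine synthesis enzyme *Gatm* was lower in aged Tfebfl/fl KAP than in aged Tfebfl/fl mice (-1.36), against 0.985% of all genes apart. *Slc5a2* was higher there in young Tfebfl/fl KAP than in young Tfebfl/fl mice (1.25), against 0.549%. Of the 17 partner and upstream genes, among them integrins that bind osteopontin and subunits of NF-kB, 6 to 9 reached 10 CPM and 0 were 2-fold apart in either class in these 3 comparisons. Over all genes the share apart was 0.273 to 3.25%. Of 8 measured genes of the response to cell dissociation, all were below 0 in S3-like cells of aged Tfebfl/fl KAP against aged Tfebfl/fl mice, beside the lower *Spp1*, with a median of -0.65 against -0.01 over all genes, 0.985% of which were 2-fold apart. Of these 8, *Atf3*, *Fos* and *Egr1* were at least 2-fold lower (-1.91, -1.10 and -1.03). The response was also lower in S1/S2-like cells of this comparison, with 9 of 9 genes below 0 and a median of -0.40 against -0.02. There 1 of the 9, *Hspa1b* (-1.74), was at least 2-fold lower, where 0.46% of all genes were apart. In young Tfebfl/fl KAP against young Tfebfl/fl mice *Hspa1b* (3.19) and *Hspa1a* (2.92) were higher in S3-like cells, where 0.549% of all genes were apart. *Hspa1b* (1.69) was also higher in S1/S2-like cells, where 0.273% were apart. The part of this response in the members' values was not tested.

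At a depth of 2000 UMIs, cells of the proximal tubule were rarely seen with several of the sparse members. Leaving out *Krt8*, *Spp1* and *Clu* and thinning to 2000 UMIs, 1.34, 1.99, 2.82 and 3.13% of S1/S2-like cells had at least 1 of the other 7, and 0, 0, 1 and 3 cells had 2 or more. In S3-like cells the shares were 0.368, 0.314, 0.435 and 0.578%, with no cell holding 2. With shares this low at this depth, few cells with 2 members could be seen. These counts therefore do not measure how often the members occur together. At full depth, *Sox9* was higher in the S1/S2-like cells with *Vcam1*, as given above. *Lcn2* was too sparse there for its level to be compared.

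Over 60 sums of a class and library, the genes whose pattern was most like a member's followed the class that made it. For *Lcn2* they were *Aqp4* (Pearson r 0.94), *Wnt9b* (0.94) and *Nipal1* (0.94), for *Vcam1* *Sdc3* (0.92), *Pparg* (0.88) and *Ehbp1l1* (0.88), and for *Krt8* *Pdzk1ip1* (0.93), *Tlcd1* (0.91) and *Hook1* (0.91). For *Krt18* they were *Cldn4* (0.97), *Slc44a3* (0.94) and *Cldn3* (0.93), and for *Spp1* *Idh3a* (0.90), *Got1* (0.86) and *Crb3* (0.86). For *Clu* they were *Tox3* (0.85), *Cadps2* (0.85) and *Cyp2j6* (0.82), for *Sox9* *Gm17767* (0.92), *Prox1* (0.91) and *Gm45847* (0.89), and for *Cd44* *Evi2a* (0.98), *Tyrobp* (0.98) and *Vav1* (0.98). *Krt8* and *Krt18* correlated at 0.79. These sums share libraries and depth, and the values are descriptions.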

How the data were processed

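The 4 libraries were grouped by their labels, and all were used. Per the submitters' processing notes, Cell Ranger 6.0.0 and build mm10 were used, and Seurat 4.4.0 is named. Before deposit the authors took out background RNA with SoupX, so that the deposited counts are corrected UMI numbers. Such a correction can lower a gene unequally between libraries. Of 48085 barcodes, those with at least 1000 genes and at most 50% mitochondrial counts were kept, 2216 doublets were removed by Scrublet scores at 0.8% per 1000 cells, and 30191 cells were clustered with scanpy 1.11.5 and leidenalg 0.10.2 (2000 variable genes, 30 components, 20 neighbours, Leiden resolution 1) into 35 clusters after integration. Clusters were named from marker lists. Sums and intervals were computed with scipy 1.17.1 under Python 3.11.15.

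Class sums were compared as log2 ratios of CPM with exact 95% binomial intervals, where both libraries had at least 20 cells. A pair counted as apart at 2-fold with a mean of at least 10 CPM. That mean is over both libraries, so that a gene high in 1 of them could pass through it alone. Patterns used log2(CPM + 10), and a share of 0 was given a limit of 3 counts. The intervals were checked on simulated Poisson counts, the model they assume, so that the check does not cover UMIs gathered in few cells. Without the 3 cells with most UMIs, 46 of 138 log2 ratios of a member and class fell outside their interval. The 10 members and all lists were chosen with earlier results of these data known. Named are all members, *Tfeb*, the 3 genes most like each member and, per list and comparison, up to 5 genes with the largest log2 ratio. The genes set out in the *Vcam1* cells were chosen after their values were seen. Whether the mice of 1 pool differed is not measured, since nothing separates them.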

Additional observations from a re-analysis of the deposited data

Results flagged for a closer look

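The class named thin limb-like held 11 cells in aged Tfebfl/fl and 8 in aged Tfebfl/fl KAP mice, too few to enter a comparison. These cells go against the label. Their thin limb markers summed to 199 and 31.5 CPM, with *Sptssb*, *Fst* and *Slc14a2* at 0 in both libraries, against 12620 and 11330 CPM in the young libraries, while their thick ascending limb markers summed to 5749 and 6304 CPM. In the largest TAL-like cluster, *Umod* alone, 1 of those markers, was at 19370 CPM, so that the sums do not name these cells. They stood out because several members lay above their level in the cells of the same class in young mice. *Krt18* (228 and 189 CPM against 299.54 and 377 CPM) lay below it. *Krt8* in the 8 cells of aged Tfebfl/fl KAP mice (181 CPM) was also below both young libraries (282 and 359 CPM). So was *Spp1* in the 11 cells of aged Tfebfl/fl mice, at 6930 against 10600 and 9163 CPM. The levels listed next are of members picked for lying above their level in young Tfebfl/fl mice. In the 11 cells of aged Tfebfl/fl mice *Havcr1* was at 170.8 CPM, *Lcn2* at 149.4 CPM, *Vcam1* at 640.3 CPM, *Krt8* at 1024 CPM, *Clu* at 562.1 CPM, *Sox9* at 149.4 CPM, *Cd44* at 92.49 CPM and *Krt20* at 28.46 CPM. In the 8 cells of aged Tfebfl/fl KAP mice *Lcn2* was at 118.2 CPM and *Clu* at 362.5 CPM. The *Havcr1* level came from 1 cell with 24 UMIs and that of *Krt20* from 1 cell with 4. Of the 7 myeloid markers, 1 was counted in either library, at 7.12 and 7.88 CPM.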

How the results depend on the processing

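No paired analysis was possible because each group had 1 library and no replicate. All counts below are of pairs at least 2-fold higher and lower, the comparisons being (A) aged Tfebfl/fl against young Tfebfl/fl, (B) aged Tfebfl/fl KAP against aged Tfebfl/fl, (C) young Tfebfl/fl KAP against young Tfebfl/fl and (D) aged Tfebfl/fl KAP against young Tfebfl/fl KAP mice. As reported they were 2 and 1 in A, 1 and 1 in B, 1 and 1 in C, and 1 and 2 in D. With at most 20% mitochondrial counts they were 2 and 5 in B and 4 and 5 in D. Lower pairs in A became 2 with doublets kept, without integration or with the mean over cells, and 0 with clusters weighted as in young Tfebfl/fl mice. Lower pairs in B became 2 without integration, with the mean over cells, without mitochondrial genes, after thinning, with background subtracted and without the 2 proximal tubule clusters with stress genes, and in D 1 with the members among the variable genes. Higher pairs in A became 0 when centred on all genes, 5 after thinning and 1 with background subtracted, where for *Clu* the level taken off is one that gEC-like cells express. Higher pairs in B became 2 when centred and 0 after thinning or with the mean over cells. Higher pairs in C became 0 without integration, 4 after thinning and 2 with background subtracted, and in D 2 after thinning or with the mean over cells. Without the 3 cells with most UMIs, A had 1 and 3, B and C had 0 higher and D had 2 higher. At 1.5-fold the counts were 8 and 6, 2 and 8, 3 and 2, and 4 and 5 in A to D. Over every pair with a count in both libraries they were 13 and 7, 7 and 9, 11 and 5, and 12 and 9, with a median of 0.31 in A. The cause was not tested. Of 131 pairs, the sign stayed in 110 after thinning, in 117 with at most 20% mitochondrial counts and in 131 at Leiden resolution 0.5. Background subtraction, omission of the 3 richest cells or of the 2 proximal tubule clusters with stress genes, and the count over every pair were chosen after seeing the data. Omission of those clusters left DCT-like pairs unchanged. A DCT-like cluster with *Ddit4*, *Ier3* and *Gadd45g* among its leading genes was kept. Depth limits the sparse members, which fell under 10 CPM in most classes, and with 1 library per group no difference was set against the spread between mice.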

Other observations

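Cells outside the named tubule classes also held UMIs of some members. Cells left unnamed, which carried markers of more than 1 class, had *Clu* at 724, 670, 923 and 838 CPM and *Krt8* at 215, 279, 276 and 183 CPM in the 4 libraries. Of the unnamed cells, 838 formed 1 cluster with markers of intercalated and principal cells, which are tubule cells. Proliferating cells, 126 and 40 in the young libraries, had *Krt8* at 483 and 513 CPM. Their next best marker list was that of S1/S2 cells. In endothelial-like cells other than glomerular ones, *Vcam1* was 166, 141, 180 and 98.1 CPM, with the aged Tfebfl/fl KAP library lowest and no split by age.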
